A study of Mus musculus with 120 samples.

Results

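The nuclear genes of the respiratory chain encode most subunits of the 5 complexes of the mitochondrial inner membrane that oxidise NADH and succinate and make ATP. Members were chosen by gene symbol: Ndufa, Ndufb, Ndufc, Ndufs and Ndufv subunits of complex I, Sdha to Sdhd of complex II, Uqcr genes of complex III, Cox4 to Cox8 of complex IV and Atp5 genes of the ATP synthase, complex V, without assembly factors and pseudogenes. The rule found 169 of the 45037 probe sets of the array, for 82 of the 18193 genes that have a probe set of their own. Of these, 149 probe sets of 77 genes passed the filter on low values (above 7.42, the median of all values, in at least 2 of the 60 males), 20 did not, and 5 genes had no probe set that passed. A further 10 probe sets name a member together with another gene and were set aside.

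Complexes I, III and IV pump protons out of the matrix while electrons pass from NADH to oxygen, complex II feeds electrons from succinate into the same chain, and complex V uses the proton gradient to make ATP. A few core subunits are encoded in mitochondrial DNA and are translated inside the organelle, so each complex except complex II joins products of both genomes. In the liver this chain carries the oxidation of fatty acids during a fast.

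Transcripts were measured with 120 whole-genome arrays in livers of 10-week-old male mice of 30 strains, fasted for 4 h, with 2 males per strain and 2 arrays per male. The groups were C57BL/6J (B6), the control; MSM, an inbred strain from Japanese wild mice; and 28 strains on the B6 background. Of the 28, B6-mtMSM is named for MSM mitochondria, and 27 carry 1 MSM nuclear chromosome, whole or in part (C for the centromeric side, T for the telomeric side): Chr1, 2C, 2T, 3, 4, 5, 6C, 6T, 7, 7C, 7T, 8, 9, 11, 12C, 12T, 13C, 13T, 14, 15, 16, 17, 18, 19, XC, XT and Y. No strain with chromosome 10 was analysed here, and the labels do not give the boundaries of the C and T parts. The labels also do not say that males come from separate litters. The p-values measure the spread between the 2 males of a strain, pooled over the 30 strains, and not that of the compared strains alone. Comparisons with B6 rest on n = 2 males against n = 2 males, and those with the other strains set 2 males against the mean of the others.

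The deposited log2 values of a probe set hardly moved between arrays, by an amount that differed from probe set to probe set: the residual SD within strains ran from 2.51e-06 to 0.00614 over the members. A difference is therefore no fold change, and sizes are given below in residual SDs (SD units), which can be set side by side. On this scale the standard error of a strain minus B6 difference is about 1 for most members, since each mean holds 2 males. Values of single males are distances from the median of the 60 males in SD units. Arrays of the same male correlated at a median r of 0.337 (60 pairs), against 0.0586 between the males of a strain (120 pairs) and -0.0274 between strains (6960 pairs). The MSM males and 1 Chr9 male deviated most over all tested probe sets, by a median of 1.43, 1.53 and 1.57 SD units, against 0.488 to 1.04 in the other 57 males. Of the hepatocyte markers, 23 probe sets of 12 genes passed the filter. So did 15 probe sets of 11 genes for Kupffer cells, the liver macrophages, so passing the filter does not single out a cell type.

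In MSM liver, a minority of the respiratory chain probe sets were called, some higher and some lower than in B6. By limma with Benjamini-Hochberg adjustment, 24 of 149 members were called against B6 at an adjusted p below 0.05 (16.1%), 15 higher and 9 lower, for 16 genes. Over all tested probe sets 23.4% were called, 13.4% higher and 9.95% lower, above the share of the members. The median t of the members was 0.547, beside 0.519 over all tested probe sets. Quantile normalization gave 49 higher and 11 lower members, beside 15884 higher and 566 lower of the 19429 tested probe sets (as deposited 2609 and 1933). Removing each array's median deviation gave 11 higher and 18 lower members, beside 1833 higher and 2572 lower of all, so the split between directions depends on the scaling. Without B6 male 1 there were 8 higher and 5 lower, without MSM male 1 9 higher, and without MSM male 2 5 lower. Against the mean of the other 29 strains, in which B6 is 1 of 29, 61 members were called (40.9%, 32 higher and 29 lower), beside 41.7% of all probe sets (25.3% higher and 16.4% lower). These came to 13 to 14 higher and 8 to 16 lower with 1 MSM male left out, and to 13 and 11 with the first array of each male alone.

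**Figure D1:**
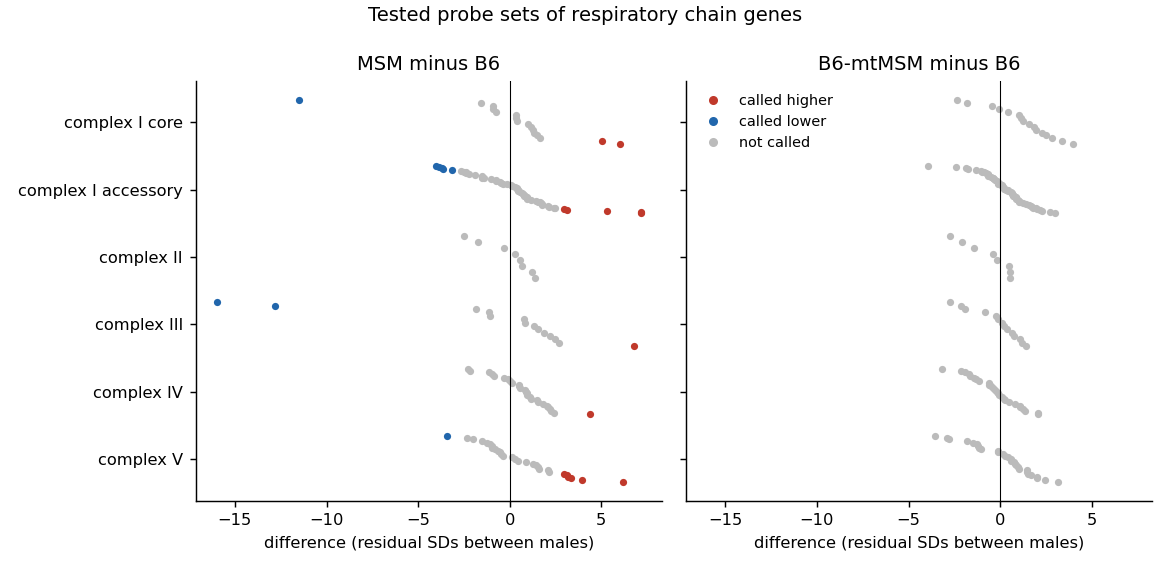
Difference of each of the 149 tested member probe sets from B6 in MSM (left) and in B6-mtMSM (right), in residual SDs between males on the horizontal axis, grouped by complex on the vertical axis; each point is 1 probe set, ordered by value within its row. In MSM 15 points are called higher and 9 lower, from -16.0 to 7.16 SD units, while none of the 149 is called in B6-mtMSM.

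Core subunits of complex I are the catalytic ones, among them those that carry the flavin and iron-sulphur clusters. They were called in 3 of 16 probe sets in MSM, 2 higher and 1 lower. Over all tested probe sets 13.4% were called higher and 9.95% lower, and no complex was tested against these shares. Ndufs7, which holds the last iron-sulphur cluster before ubiquinone, lay at 6.21 and 5.31 SD units in the MSM males and at 0.0431 and -0.583 in the B6 males (1451312_at). That difference of 6.03 SD units (adjusted p = 2.79e-05) was called with each of the 4 males left out, and both MSM males stood above the highest male of any other strain outside B6, at 2.31. Its other probe set, 1424313_a_at, differed by 1.29 (adjusted p = 0.364). Ndufs7 lies on chromosome 10, as do the other 2 member probe sets of that chromosome called in MSM, both for Atp5d, so no strain here separates them from the rest of the MSM genome. Ndufv1, the NADH-binding subunit, gave differences from B6 of -11.5 SD units at 1 probe set and 5.05 at another, and both are taken up with chromosome 19 below.

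Accessory subunits of complex I stabilise the core and are needed for its assembly. They were called higher in 5 and lower in 5 of 55 probe sets, beside 13.4% and 9.95% of all tested probe sets. Ndufa1, an X-linked membrane subunit, was at 3.33 and 5.13 SD units in MSM and at -2.37 and 0.214 in B6 (5.31 higher, adjusted p = 0.000173). All 4 fits without 1 of these males kept the Ndufa1 call, yet the 2 B6 males were themselves far apart. Ndufc1, a small membrane subunit, was lower at both of its called probe sets, with a difference of -4.05 SD units at 1448284_a_at (MSM males at -4.70 and -4.64, B6 males at -1.03 and -0.206, adjusted p = 0.00293) and -3.14 at 1416285_at (adjusted p = 0.0199). Of those, 1448284_a_at kept its call without each male, and 1416285_at did so in 1 of 4 fits. Ndufs5, an intermembrane-space subunit, was at -2.95 and -3.98 in MSM and at 0.530 and -0.141 in B6 (a difference of -3.66, adjusted p = 0.00694), lost without B6 male 1 or MSM male 2. Ndufc2, Ndufb3 and Ndufab1 were called too and are described with their chromosomes.

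Lower in the order of evidence were Ndufa13, also known as GRIM-19, with MSM males at 1.62 and 1.84 and B6 males at -1.59 and -1.18 (adjusted p = 0.0227), and Ndufa4, at 0.837 and 1.24 against -2.15 and -1.68 (adjusted p = 0.0289). Ndufa4 was first placed in complex I and is now assigned to complex IV. Here it is counted by its symbol, among the accessory probe sets of complex I called higher and outside the count of complex IV. For both genes the MSM males lay inside the range of the other strains or barely above it, and 1 Ndufa4 B6 male lay below that range. Neither call was kept when any of the 4 males was left out, and both were lost with array medians removed (adjusted p = 0.0557 and 0.0741). Under quantile normalization Ndufa13 changed sign, as did Ndufs5, Ndufc1 at 1448284_a_at, Ndufc2 at 1460506_s_at and Atp5d at 1423716_s_at.

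Complex II, succinate dehydrogenase, had no called member among 8 probe sets of its 4 genes in MSM, beside 23.4% of all tested probe sets. The nearest was Sdha, the flavoprotein subunit, with MSM males at -1.44 and -0.434 and B6 males at 2.02 and 1.11 (a difference of -2.50 SD units, adjusted p = 0.0661). In B6-mtMSM the same probe set differed from the same B6 males by -2.73 (adjusted p = 0.255), with values of -0.712 and -1.63. Both comparisons share the B6 males, of which male 1 lay near the top of the other strains' range (-1.95 to 2.14).

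Complex III was called in 3 of 14 probe sets, beside 23.4% of all tested probe sets. All 3 were for Uqcr10, a small subunit, 2 lower and 1 higher. Among the rest, Uqcrh, the acidic hinge protein, was at 3.0 and 2.48 in MSM and at -0.845 and 0.978 in B6 (2.67 higher, adjusted p = 0.0516), just outside the threshold.

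Complex IV, cytochrome c oxidase, was called in 1 of 27 probe sets, beside 23.4% of all tested probe sets. This was Cox6a2, the heart and skeletal muscle form of subunit VIa, at 1.61 and 3.23 SD units in MSM and at -2.50 and -1.39 in B6 (4.37 higher, adjusted p = 0.0120). The mean log2 value of this probe set, 1417607_at, was 7.78, near the filter on low values. The other strains ran from -2.89 to 2.72 there, a range that held MSM male 1 and the B6 males. Another Cox6a2 probe set, 1457633_x_at, lay below the filter (mean 7.11). It was 1.445 SD units higher in MSM and not called (adjusted p = 0.343, limma fit without the filter). The call ended with B6 male 1 or MSM male 2 dropped, in the model of 120 arrays with male as a random block (adjusted p = 0.0578), with the first array of each male alone (0.444) and with Benjamini-Yekutieli adjustment (0.126). Its liver counterpart Cox6a1 did not pass in MSM, with differences of 0.501 and 0.0259 SD units at its 2 probe sets (adjusted p = 0.862 and 0.988).

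In complex V, 6 probe sets of 29 were called higher and 1 lower, beside 13.4% and 9.95% of all tested probe sets. Atp5o, the stalk subunit also called OSCP, was higher by both of its probe sets, by 6.19 SD units at 1416278_a_at (adjusted p = 1.93e-05) and by 3.94 at 1437164_x_at, where the MSM males were at 3.42 and 2.82 and the B6 males at -1.21 and -0.438 (adjusted p = 0.00374). Atp5d, the delta subunit of the rotor, was higher by both of its called probe sets, by 3.35 at 1423716_s_at (MSM males at 2.28 and 1.71, B6 males at -1.51 and -1.19, adjusted p = 0.0132) and by 3.19 at 1456580_s_at (adjusted p = 0.0190). Atp5k, the e subunit of the membrane part, was higher by 3.15 at 1450640_x_at (4.04 and 2.83 against 0.789 and -0.217, adjusted p = 0.0207) and by 2.97 at 1422525_at (adjusted p = 0.0287). Atp5j2, the f subunit, was lower at 1416269_at (a difference of -3.44), where both MSM males (-3.75 and -4.15) lay below every male of the strains other than B6, whose lowest was -1.76 (adjusted p = 0.0108). At 1435395_s_at and 1443495_at Atp5j2 differed in MSM by 1.43 and 0.279, neither called (adjusted p = 0.3135 and 0.869). With 1 of the 4 males dropped, the Atp5o call was kept in all 4 fits at 1416278_a_at and in 3 at 1437164_x_at, and the Atp5k call in 2 at 1450640_x_at. The calls of Atp5d at 1423716_s_at and of Atp5j2 were kept in 1 of 4 fits each (Atp5j2 adjusted p = 0.0428 to 0.0806), and those of Atp5d at 1456580_s_at and Atp5k at 1422525_at in 0. With the first array of each male alone, the MSM calls of Atp5j2 (adjusted p = 0.169), Atp5o at 1437164_x_at, Atp5d at 1456580_s_at and both Atp5k probe sets were lost, as were those of Ndufs5, Ndufc1 at 1416285_at, Ndufa13 and Ndufa4. Under quantile normalization the differences of Atp5o at 1416278_a_at and of both Atp5k probe sets became 0, as did that of Ndufab1 at 1428159_s_at; under it 32 of 149 members take 1 value in all males.

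Replacing the mitochondrial genome left no nuclear member called. In B6-mtMSM 0 of 149 probe sets passed against B6, beside 0.262% of all tested probe sets, and limma gave an unadjusted p below 0.05 for 25 of them. Against the other 28 strains without MSM, 0 of 149 passed as well, beside 0.288% of all probe sets, with 17 at an unadjusted p below 0.05. The share of all tested probe sets at that unadjusted threshold was not computed, so the counts of 25 and 17 are no result about the members. The count of 0 against B6 held in every fit with 1 male left out and under every other alternative, except that the model of all 120 arrays called 1 member in each of the 2 comparisons. Median t over the members was 0.246 against B6, beside 0.00261 over all tested probe sets, and -0.0421 against the other strains, beside -0.0463. The median absolute t was 0.972 against B6, beside 0.834, and 0.745 against the other strains, beside 0.771. A p above the threshold with 2 males does not show that a member is alike in both strains.

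The 6 members with the largest t in B6-mtMSM, none of them called, were Ndufs8 at 2 probe sets, Ndufc2, Cox7a2l, Atp5j2 and Ndufb7. Ndufs8, a core subunit with 2 iron-sulphur clusters, was at 1.92 and 1.07 in the B6-mtMSM males and at -1.96 and -2.97 in B6 (1434579_x_at, 3.96 higher, adjusted p = 0.0849). Its probe set 1455283_x_at differed by 3.36 (1.80 and 1.06 against -1.66 and -2.21, adjusted p = 0.154). Against the other strains those 2 differences were 1.51 and 1.47 (adjusted p = 0.560 and 0.579), shorter than against B6, whose males lay near or below the lowest of the other strains. Ndufc2, an accessory membrane subunit, was at -1.56 and -3.62 against 1.21 and 1.46 in B6 (1416366_at, a difference of -3.93, adjusted p = 0.0882). It is the member that the model of 120 arrays called (adjusted p = 0.0415), and against the other strains it differed by -2.46 (adjusted p = 0.172).

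Cox7a2l, a complex IV homologue that helps to join complexes III and IV into supercomplexes, differed by -3.15 SD units in B6-mtMSM (adjusted p = 0.189), with males at -0.466 and -2.99 against 2.09 and 0.759 in B6. Atp5j2 at 1443495_at differed by 3.16 (adjusted p = 0.189) and Ndufb7, an intermembrane-space subunit, by 3.02 (adjusted p = 0.203). None of the 6 probe sets differed from the other strains at an adjusted p below 0.05 (0.172 to 0.749).

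ND5, the proton-pumping complex I subunit encoded in mitochondrial DNA, was called. The 2 B6-mtMSM males lay at 5.86 and 5.68 SD units and the MSM males at 5.11 and 4.57, all 4 above the 54 males of the nuclear consomic strains, which ran from -2.15 to 1.78. The B6 males were at -2.20 and 0.294. ND5 was higher than in B6 in B6-mtMSM by 6.72 (adjusted p = 0.000938) and in MSM by 5.79 (adjusted p = 4.95e-05), and than in the other strains by 5.93 and 4.80 (adjusted p = 2.34e-05 and 2.89e-06). Dropping B6 male 1 ended the call in B6-mtMSM against B6 (adjusted p = 0.162), as did using the first array of each male alone (adjusted p = 0.458), and quantile normalization set both differences from B6 to 0. ND5 is the single mitochondrially encoded subunit with a tested probe set, and whether its probes match both mitochondrial genomes equally was not tested.

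**Figure D2:**
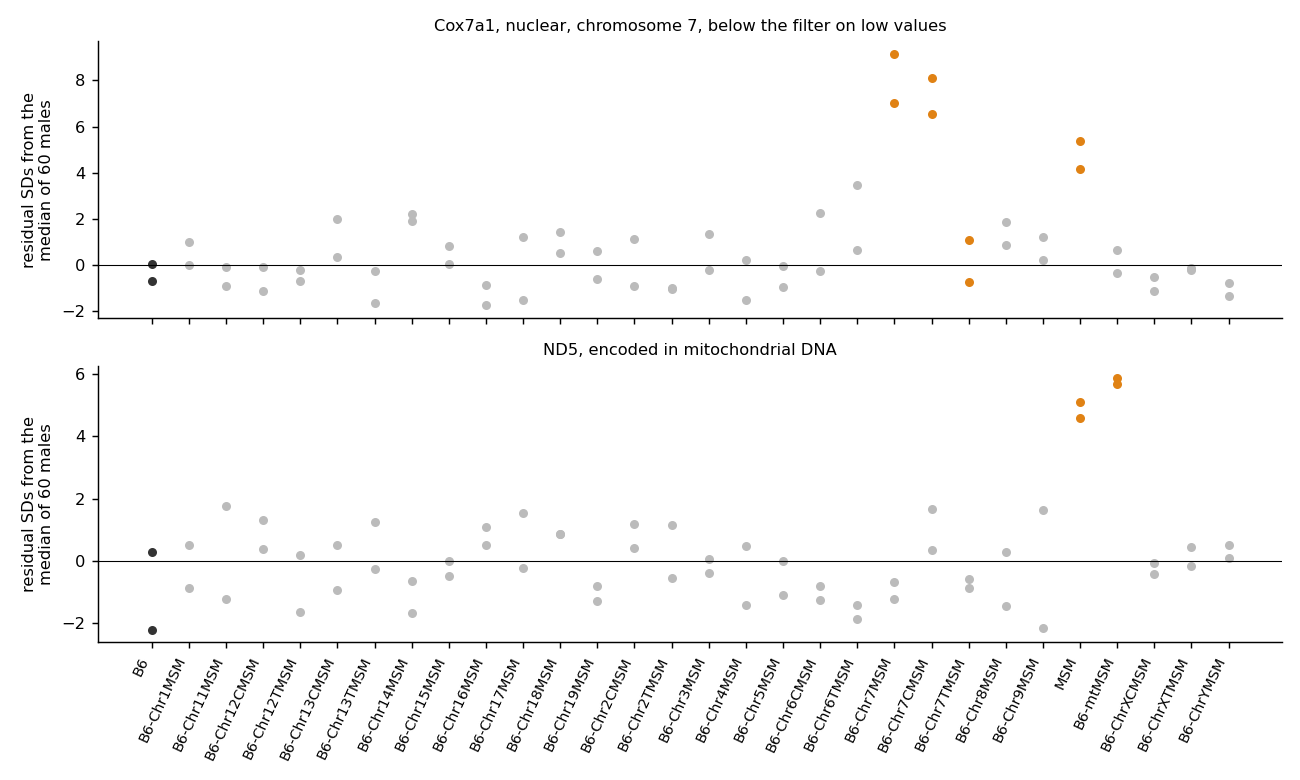
Values of Cox7a1 (top) and of the mitochondrially encoded ND5 (bottom) in both males of each of the 30 strains, in residual SDs from the median of the 60 males; orange marks the strains that carry the gene's chromosome or genome from MSM, black marks B6. Cox7a1 lies between 6.54 and 9.15 in the Chr7 and Chr7C males and between -0.753 and 1.06 in the Chr7T males, and ND5 lies above 4 only in the MSM and B6-mtMSM males.

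The consomic strains ask whether a member moves when its own chromosome comes from MSM. For 71 member genes at least 1 strain carries the chromosome, which gives 198 pairs of probe set and strain. Of these, 13 were called against B6 (6.57%, beside 5.56% of such pairs over all tested probe sets), for 10 probe sets of 7 genes: Uqcr10, Ndufv1, Ndufab1, Atp5o, Ndufb3, Cox6a1 and Ndufc2. On the other chromosomes 1 of 3825 member pairs was called (0.0261%, beside 0.103%). Over all 27 strains that makes 14 of 4023 pairs (0.348%, beside 0.369%), in 9 strains. With B6 male 1 dropped there were 8 own-chromosome calls and 8 in all; with B6 male 2 dropped there were 7 and 8. With the first array of each male alone 5 own-chromosome pairs were called. Lost there were Atp5o in Chr16 (adjusted p = 0.296), Cox6a1 in Chr5 (0.163), Ndufb3 in Chr1 (0.228), Ndufc2 in Chr7C (0.633) and, for Ndufab1, 1428159_s_at in Chr7C (0.0647) and Chr7T (0.2998) and both calls at 1458678_at. Among the 24 member probe sets called in MSM, 21 have a strain with their chromosome, and 8 of those were called in such a strain. The matching share over all probe sets called in MSM was not computed, so this count is no result about the members.

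Uqcr10 gave the largest differences of the whole set, at probe sets of unlike level. The mean log2 value was 7.54 at 1434340_at, near the filter on low values, and 8.82 at 1434341_x_at. It was 11.65 at 1424364_a_at, which differed in the opposite direction from the other Uqcr10 probe sets. At 1434340_at the Chr11 males were at -17.1 and -17.7 SD units and the MSM males at -16.1 and -16.3, while the B6 males were at -0.144 and -0.226 and the 54 males of the strains without an MSM chromosome 11 ran from -2.30 to 3.49. The difference from B6 was -0.106 ± 0.0061 on the deposited log2 scale in Chr11 (-17.2 SD units, adjusted p = 6.72e-14) and -0.0982 ± 0.0061 in MSM (-16.0 SD units, adjusted p = 6.1e-14). At 1434341_x_at the Chr11 males lay at -13.9 and -14.0 and the MSM males at -12.5 and -12.3, against 0.888 and -0.0737 in B6 (adjusted p = 7.62e-12 and 1.47e-11). The third probe set, 1424364_a_at, went the other way: 7.07 and 6.84 in Chr11 and 7.76 and 7.02 in MSM, against 1.15 and 0.109 in B6 and a highest value of 3.10 in the other strains (adjusted p = 0.000202 and 5.06e-06). In each of the 3, the Chr11 and MSM males did not overlap any other male, and every call was kept with each male left out. Chr11 and MSM did not differ from each other at an adjusted p below 0.05 at any of the 3 probe sets (0.283 to 0.796).

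Ndufv1 on chromosome 19 showed a like pattern for 1 of its 3 probe sets. At 1415966_a_at the Chr19 males were at -13.2 and -15.0 and the MSM males at -12.7 and -11.7, beside -0.153 and -1.19 in B6 and -1.91 to 2.39 in the other strains (adjusted p = 6.83e-11 in Chr19 and 1.65e-10 in MSM). The difference was -0.00963 ± 0.00071 in Chr19 on the deposited log2 scale. At 1415967_at MSM was higher by 5.05 SD units (5.59 and 4.58 against 0.611 and -0.544 in B6, adjusted p = 0.000303), but Chr19 was not called, with males at 1.89 and -0.188 (adjusted p = 0.843). The third, 1456015_x_at, was not called in MSM (1.49 higher, adjusted p = 0.292). Probe sets of the same gene can thus report opposite signs here, and the cause was not tested.

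Of 44 member genes with several tested probe sets, 10 had at least 1 called in MSM. Uqcr10 and Ndufv1 are the 2 with a called probe set in each direction. In 5 genes at least 2 probe sets were called and all went 1 way (Ndufab1, Ndufc1, Atp5o, Atp5d and Atp5k), and in 6 genes some probe sets were called and others were not. Probe set names ending in _s_at or _x_at mark designs that may also match other transcripts, and both Atp5d probe sets are of this kind. So are Ndufab1 1428159_s_at, Cox6a1 1417418_s_at, Uqcr10 1434341_x_at, Ndufc2 1460506_s_at, Ndufa13 1430713_s_at, Atp5o 1437164_x_at, Atp5k 1450640_x_at and Ndufs8 1434579_x_at.

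**Figure D3:**
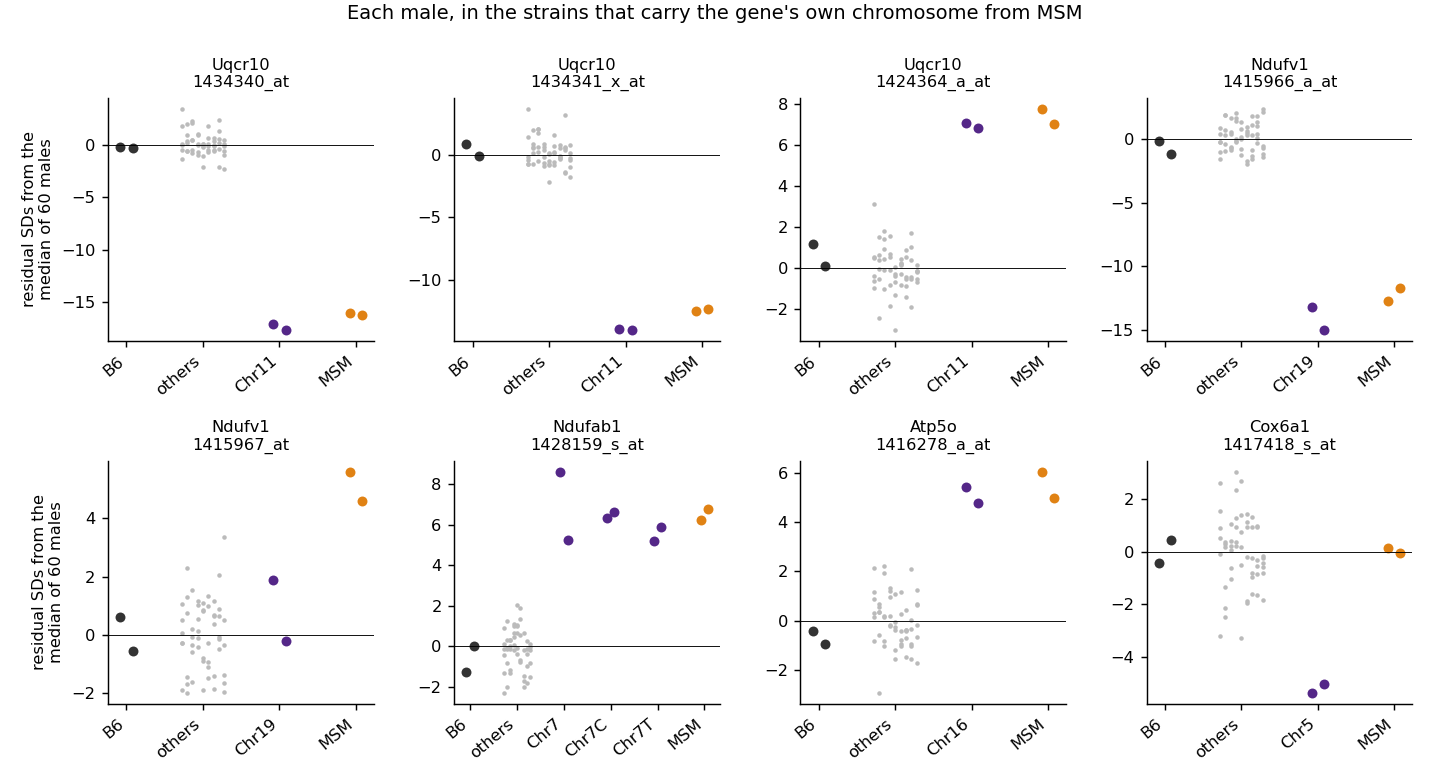
Single males at 8 member probe sets, in residual SDs from the median of the 60 males (vertical axis, scaled per panel), for B6 (black), the strains without an MSM copy of the gene's chromosome (grey), the strains with that chromosome or part (purple) and MSM (orange). Both Uqcr10 probe sets on the left lie below -12 in Chr11 and MSM, the third lies above 6, and Cox6a1 is low in Chr5 while MSM lies with B6.

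Ndufab1 on chromosome 7, the mitochondrial acyl carrier protein that also sits in complex I, was higher at 1 probe set in all strains with MSM chromosome 7. At 1428159_s_at the Chr7 males were at 8.62 and 5.22, the Chr7C males at 6.31 and 6.61, the Chr7T males at 5.18 and 5.90 and the MSM males at 6.22 and 6.79. The B6 males were at -1.29 and 0.00418, and the 50 males without MSM chromosome 7 reached at most 2.01. Differences from B6 were 7.57, 7.10, 6.18 and 7.15 SD units in that order (adjusted p = 1.73e-05, 7.6e-05, 0.000913 and 2.02e-06). Chr7T and Chr7C did not differ at an adjusted p below 0.05 (-0.916 SD units, adjusted p = 1.0), so both part strains carried the higher value although they are named for opposite ends. Dropping B6 male 1 ended the Chr7T call (adjusted p = 0.110). At 1458678_at MSM was higher by 7.16 (males at 5.18 and 7.31, adjusted p = 2.04e-06), Chr7C by 4.90 (adjusted p = 0.0106) and Chr7 by 4.0 (adjusted p = 0.0361), while Chr7T was not called (3.24, adjusted p = 0.261). The Chr7 call was lost with each male left out and the Chr7C call was kept in 1 of 4 fits. At 1428160_at none was called against B6, with differences of 0.433 in MSM (adjusted p = 0.786), 3.50 in Chr7 (0.0673), 3.19 in Chr7C (0.267) and 2.21 in Chr7T (0.521).

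Atp5o on chromosome 16 was higher in Chr16 at 1416278_a_at, with males at 5.42 and 4.77 beside 6.04 and 4.96 in MSM, -0.410 and -0.969 in B6 and at most 2.20 in the other strains (5.78 SD units, adjusted p = 0.00251). The Chr16 call was lost without B6 male 2 or Chr16 male 1, and against the other strains it was kept in both fits (adjusted p = 3.38e-05 with both males). Ndufb3 on chromosome 1, an accessory subunit, was lower in Chr1, with males at -2.77 and -4.22 beside -2.55 and -3.49 in MSM and 1.09 and 0.561 in B6 (a difference of -4.32, adjusted p = 0.0378). The Chr1 call did not survive any left-out male, and the MSM call (adjusted p = 0.00468) was kept in 2 of 4 fits.

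Cox6a1, the liver form of subunit VIa on chromosome 5, differed between Chr5 and the MSM parent. At 1417418_s_at the Chr5 males lay at -5.36 and -5.03, below all other males, of which the lowest outside B6 and MSM was at -3.29. The MSM males were at 0.144 and -0.0587 and the B6 males at -0.433 and 0.466. Chr5 differed from B6 by -5.21 SD units (adjusted p = 0.00454) and from MSM by -5.24 (adjusted p = 0.000188). The difference from MSM was kept with each of the 4 males left out, and that from B6 was lost without B6 male 2 or Chr5 male 2. Quantile normalization set both differences to 0. At the other Cox6a1 probe set, 1417417_a_at, the Chr5 males were also low, at -3.70 and -4.70. The MSM males were at 1.08 and 0.172 there and the B6 males at -0.399 and 0.649, and Chr5 was not called against B6.

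Ndufc2 on chromosome 7 was lower in Chr7C at 1416366_at, with males at -3.09 and -3.73 against 1.21 and 1.46 in B6 (a difference of -4.75, adjusted p = 0.0151). The MSM males were at -0.431 and 0.273, not called against B6 (adjusted p = 0.318) and higher than Chr7C by a called margin (Chr7C minus MSM -3.33, adjusted p = 0.0134). Without any single male of Chr7C or B6 the call against B6 was lost. Chr7 and Chr7T differed from B6 by -1.46 and -3.24 there and were not called. No difference among the Chr7, Chr7C and Chr7T strains was called either (adjusted p = 0.526 to 0.980). At 1460506_s_at MSM itself was lower (a difference of -3.69, males at -3.36 and -3.21 against 0.446 and 0.369, adjusted p = 0.00649), kept in all 4 fits. At 1455036_s_at and 1431670_at MSM differed by -0.532 and 0.0928, neither called (adjusted p = 0.736 and 0.958).

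Set against the mean of the strains without that chromosome from MSM, 20 of the 198 own-chromosome pairs were called (10.1%, beside 10.3% of all such pairs), for 11 genes. The 4 genes added were Ndufc1 in Chr3, Ndufs5 in Chr4, Ndufb2, an accessory subunit, in Chr6T, and Uqcrc1, a core protein of complex III, in Chr9. Ndufc1 at 1416285_at had Chr3 males at -2.70 and -4.46 beside -2.81 and -4.49 in MSM and -2.35 as the lowest of the other strains (adjusted p = 0.00198, kept in 1 of 2 fits with a male left out). Ndufs5 had Chr4 males at -3.70 and -2.15 (adjusted p = 0.0168) and Ndufb2 Chr6T males at 2.21 and 3.71 (adjusted p = 0.0253), both lost with either male left out. Uqcrc1 had Chr9 males at -5.02 and -2.38 (adjusted p = 0.00121) and was lost without Chr9 male 1, the male that stood apart over all probe sets (adjusted p = 0.708).

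The regions before the start of the 4 genes with the clearest or most divergent pattern are shown because at each of them a strain with the gene's own MSM chromosome was called. They are the 250 bases before the annotated start from RefSeq (GRCm38.p6, the B6-based reference), written 5′ to 3′ on the strand of the gene, at chr11:4704345-4704594 (minus strand) for Uqcr10, chr19:4012756-4013005 (minus) for Ndufv1, chr7:122101849-122102098 (minus) for Ndufab1 and chr5:115348959-115349208 (minus) for Cox6a1. Capitals mark matches on either strand to an NRF1 core (GCATGCGC), an ETS site as bound by GABPA (CCGGAAG), YY1 (AAGATGGC), SP1 (GGGCGG) or ERRA (TCAAGGTCA).
Uqcr10: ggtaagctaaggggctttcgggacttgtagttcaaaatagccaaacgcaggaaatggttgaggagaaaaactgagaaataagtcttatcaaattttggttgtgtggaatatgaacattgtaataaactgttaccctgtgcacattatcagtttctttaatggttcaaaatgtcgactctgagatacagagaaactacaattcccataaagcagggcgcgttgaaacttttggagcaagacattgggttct
Ndufv1: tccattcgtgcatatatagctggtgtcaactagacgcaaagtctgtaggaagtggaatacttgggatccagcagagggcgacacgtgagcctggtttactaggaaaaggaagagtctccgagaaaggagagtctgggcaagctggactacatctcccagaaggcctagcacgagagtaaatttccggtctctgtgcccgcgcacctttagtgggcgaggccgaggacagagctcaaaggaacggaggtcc
Ndufab1: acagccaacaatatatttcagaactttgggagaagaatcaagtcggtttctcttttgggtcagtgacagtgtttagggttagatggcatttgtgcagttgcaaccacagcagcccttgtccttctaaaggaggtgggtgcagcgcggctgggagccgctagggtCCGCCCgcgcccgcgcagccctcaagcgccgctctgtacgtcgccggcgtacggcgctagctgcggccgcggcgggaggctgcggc
Cox6a1: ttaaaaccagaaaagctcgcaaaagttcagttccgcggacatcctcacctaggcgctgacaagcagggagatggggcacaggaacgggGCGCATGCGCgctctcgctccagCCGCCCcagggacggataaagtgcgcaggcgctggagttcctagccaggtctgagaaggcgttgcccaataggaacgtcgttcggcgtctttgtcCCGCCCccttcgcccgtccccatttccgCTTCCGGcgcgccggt
No match to these letters lies in the Uqcr10 and Ndufv1 windows, Ndufab1 has 1 SP1 match, and Cox6a1 has an overlapping pair of NRF1 cores, 1 on each strand, an ETS match and 2 SP1 matches. Of the 77 tested member genes 62 had an entry, with 67 windows of 300 bases (250 before and 50 after the start). The NRF1 core was in 13.4% of those windows and in 2.71% of the 32851 windows of all genes, the ETS site in 25.4% and 8.86%, YY1 in 13.4% and 2.75%, ERRA in 2.99% and 0.423%, and SP1 in 40.3% and 35.7%. NRF1 and GABPA are known regulators of respiratory chain genes. A match is only a run of letters, and MSM sequence at these windows was not examined.

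The single member called against B6 away from its own chromosome was Ndufs8 (1434579_x_at, chromosome 19) in Chr18, with males at 1.67 and 1.85 against -1.96 and -2.97 in B6 (4.22 higher, adjusted p = 0.0429). Against the other strains Chr18 differed by 1.79 SD units (adjusted p = 0.359), and no fit with 1 of these males left out kept the call. At the Ndufs8 probe sets 1423907_a_at and 1434213_x_at, MSM males (-2.52 and -2.88, and -2.54 and -2.48) and B6 males (-1.61 and -1.99, and -1.15 and -2.37) were all low. Against the other strains, 2 further calls lay off the own chromosome: Uqcr10 at 1434340_at higher in Chr7 (3.49 and 0.958, adjusted p = 0.0311), lost without Chr7 male 1, and Cox8c lower in Chr9 (-3.91 and -1.61, adjusted p = 0.0234), lost without Chr9 male 1 (adjusted p = 1.0).

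Over all 30 strains at once, a moderated F test called 18 of 149 members (12.1%, beside 16.2% of all tested probe sets). The largest F belonged to Uqcr10 at 1434340_at (39.1), Ndufv1 at 1415966_a_at (24.9) and Uqcr10 at 1434341_x_at (24.9). Without either MSM male the count was 10. Cox7a2l at 1421772_a_at was among the 18 (adjusted p = 0.0115) although no single strain was called against B6, and its carrier strain Chr17 lay at 0.341 and 1.59, inside the spread of the others.

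The members' median differed widely between the 2 males of some strains. The median of the 149 members ran from -1.30 SD units in Chr1 male 2, where 10 of 149 were above the 60-male median, to 1.22 in Chr4 male 2, where 131 were. The other Chr1 male was at 0.509 and the other Chr4 male at 0.0874. The 2 males of a strain differed by a median of 0.596, the SD of the 30 strain means was 0.340, and in 17 strains the males lay on opposite sides of 0. Over all tested probe sets the medians of Chr1 male 2 and Chr4 male 2 were -0.0245 and 0.0241, close to 0. Chr14 (0.697 and 0.777) had both males high, and Chr15 (-0.415 and -0.575) and Chr7T (-0.469 and -0.559) had both low. The MSM males were at 0.163 and 0.310, beside 0.486 and 0.513 over all probe sets, the B6 males at -0.327 and -0.225 and the B6-mtMSM males at 0.320 and -0.466.

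**Figure D4:**
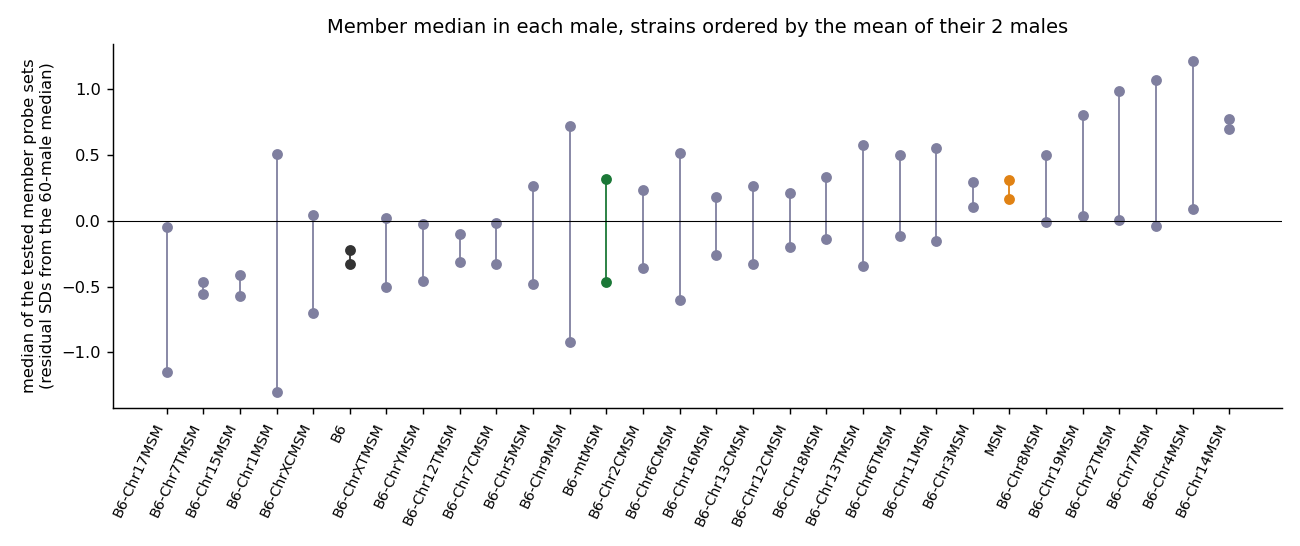
Median of the 149 member probe sets in each male, in residual SDs from the 60-male median (vertical axis), with the 2 males of a strain joined by a line and strains ordered by their mean; black is B6, orange MSM and green B6-mtMSM. The medians run from -1.30 (Chr1 male 2) to 1.22 (Chr4 male 2), and in 17 strains the line crosses 0.

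Among the 20 member probe sets below the filter, 6 were called in MSM when all probe sets were fitted (beside 12.2% of probe sets below the filter), none (0) in B6-mtMSM (beside 0.0258%), and 4 of 540 pairs in the 27 strains (0.741%, beside 0.120%). At such levels a value can be background, so these are given as differences between strains only. Cox7a1, the muscle and brown fat form of subunit VIIa on chromosome 7, was at 7.01 and 9.15 SD units in Chr7, at 6.54 and 8.10 in Chr7C and at 4.17 and 5.38 in MSM. The Chr7T males were at 1.06 and -0.753, the B6 males at 0.024 and -0.715, and the 50 males without MSM chromosome 7 ran from -1.76 to 3.46. Cox7a1 was higher than B6 by 8.42 in Chr7 (adjusted p = 3.23e-06), by 7.67 in Chr7C (adjusted p = 3.8e-05) and by 5.12 in MSM (adjusted p = 0.000346), all 3 kept with each male left out. Below the filter 0.219%, 0.110% and 0.0709% of probe sets were called in Chr7, Chr7C and Chr7T. Chr7T minus Chr7C was -7.17 SD units (adjusted p = 0.000113). The higher value therefore went with the strains named for the whole and the centromeric chromosome, unlike that of Ndufab1 at 1428159_s_at, which was found in both part strains.

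Its liver counterpart Cox7a2, on chromosome 9, differed by 1.82 and 1.53 SD units in MSM at its 2 probe sets, neither called. The other tissue forms did not pass either: Cox6b2, the testis form, differed by -0.407, Cox8b, the muscle and fat form, by 1.16, Cox7b2 by 0.987, Cox4i2, the lung form, by 2.41 and Cox8c, the testis form, by 0.881. Striated muscle markers were called in 0 of 5 probe sets in MSM and fat markers in 0 of 3; the muscle markers averaged 0.598 and 0.934 in the MSM males and -0.566 and -0.145 in B6, and their part in the Cox6a2 and Cox7a1 values was not tested.

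Below the filter, Ndufb8 at 1458404_at repeated the chromosome 19 pattern, with Chr19 males at -8.27 and -9.67 and MSM males at -7.13 and -8.50 against -0.216 and -0.848 in B6 (adjusted p = 3.88e-06 and 2.04e-06), while its tested probe set 1448198_a_at differed by 0.188 in Chr19 (adjusted p = 0.971). Ndufa12 at 1425919_at, annotated to chromosome 10, was low in MSM (-6.52 and -6.29) and in Chr5 (-5.97 and -5.83), against 0.0143 and 0.918 in B6 and a lowest value of -1.71 in the other 54 males (adjusted p = 5.24e-06 and 0.000279). Ndufa3 at 1430149_at, Cox5b at 1448514_at and Ndufab1 at 1453565_at were the remaining 3, each higher in MSM by 3.27 to 3.78 SD units.

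Other genes of the pathway, from lists chosen with earlier results of these data known, were called in MSM at shares from 18.2% of a list to 55.6%, and 100% for ND5 alone, beside 23.4% of all tested probe sets. Cytochrome c and subunits outside the symbol rule were higher in 4 and lower in 0 of 10 probe sets, among them Atpif1, the inhibitor of ATP hydrolysis by complex V (4.74 SD units, adjusted p = 0.000609), Higd1a (4.33, adjusted p = 0.00158) and Cycs, cytochrome c itself (3.67, adjusted p = 0.00681). Complex I assembly factors were higher in 2 and lower in 5 of 22, with Ndufaf5 higher (4.4) and Acad9 lower (-4.08). Assembly factors of complexes II to V were higher in 5 and lower in 3 of 44, with Cox10, which makes heme O, higher (4.16) and Cox11 (-6.10) and Sco1 (-6.17), both copper carriers for complex IV, lower. Enzymes of the tricarboxylic acid cycle were higher in 6 and lower in 3 of 27, led by Idh3a higher by 11.6 and 6.91 at 2 probe sets (adjusted p = 1.41e-10 and 3.6e-06) and Suclg2 lower (-7.40, adjusted p = 1.11e-06).

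Regulators of mitochondrial biogenesis were higher in 4 and lower in 3 of 27, with Tfam, which packs and transcribes mitochondrial DNA, lower (-5.01, adjusted p = 0.000338) and Polg, the mitochondrial DNA polymerase, higher (3.86, adjusted p = 0.00456). Ubiquinone synthesis was higher in 5 and lower in 5 of 18, with Coq2 lower (-6.34) and Pdss2 higher (4.73). Mitochondrial chaperones and proteases were higher in 4 and lower in 2 of 29, with Yme1l1, an inner-membrane protease, higher by 8.53 (adjusted p = 8.17e-08) and Hspe1, a matrix chaperonin, higher by 6.39 and 6.09. Genes taken by the symbol pattern of the mitochondrial ribosome, whatever their product does, were higher in 13 and lower in 13 of 126 probe sets. Among them Mrpl50 (-7.10) and Mrps21 (-6.37) were lower and Mrps36 (6.27) was higher. In B6-mtMSM the single called probe set over these lists was ND5. Sco1, Acad9, Tfam, Coq2 and Mrps21 changed sign under quantile normalization, and the lists' 44 higher and 34 lower calls came to 28 to 29 and 18 to 21 when 1 B6 or MSM male was dropped.

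The counts of cell type markers in MSM stand beside 13.4% higher and 9.95% lower over all tested probe sets. Markers of Kupffer cells were lower in MSM in 5 of 15 probe sets and higher in 0. Their mean was -2.96 and -2.76 SD units in the MSM males, -0.574 and -0.465 in B6, and -0.698 and 0.943 in B6-mtMSM. Hepatocyte markers were lower in 2 of 23 (8.7%, near the share of all probe sets), with means of -1.81 and -1.09 in MSM and -0.0617 and 0.561 in B6. Endothelial markers were called in 1 of 15 in each direction, stellate and fibroblast markers higher in 2 and lower in 1 of 12, cholangiocyte markers higher in 2 of 4, neutrophil markers higher in 1 of 2, erythroid markers lower in 1 of 2, and lymphocyte (0 of 4) and pancreas markers (0 of 3) in none. In bulk liver fewer cells of a type and less RNA per cell cannot be told apart, and the part of these shifts in the member differences of MSM was not tested. In B6-mtMSM 1 marker probe set was called, for the neutrophil receptor Cxcr2 (4.60 SD units, adjusted p = 0.0385), beside 0.262% of all tested probe sets. The neutrophil mean was 2.69 and 2.73 in the B6-mtMSM males, 1.84 and 2.63 in MSM and -0.704 and -0.577 in B6, and the endothelial mean was -1.85 and -1.46 in B6-mtMSM against -0.0684 and -0.000415 in B6. Their part in the member values of B6-mtMSM was not tested.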

How the data were processed

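RNA of 60 livers (2 males per strain, 2 arrays each) was hybridised to 1-colour arrays after RNeasy extraction and 3′ IVT labelling, per the labels' protocols. The authors deposited log2 values per probe set; how probes were summarised and normalized, and with which software and log base, is not given in the sources used here. A base of 2 is assumed from the range of 6.34 to 14.8. Each probe set varies between arrays on a compressed scale of its own, so differences are in residual SDs. The number of arrays limits the precision.

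Of 45037 probe sets, 34945 carried 1 symbol, 932 several and 9160 none; 34741 matched RefSeq (GRCm38.p6) by gene ID. The 2 arrays of a male were averaged, reading the animal number in the titles as 1 male, an assumption. The 19429 single-symbol probe sets above the overall median in at least 2 males were fitted with limma 3.58.1 in R 4.3.3, 1 mean per strain (30 residual degrees of freedom, prior 0.579), with p-values adjusted over all of them per contrast (Benjamini-Hochberg, threshold 0.05). Strains were set against B6, against strains without that MSM chromosome and, as an addition, against MSM and among the Chr7 strains. Members and lists were chosen with earlier results of these data known. Named were all members called in MSM or in a strain with their own chromosome, the 6 largest t in B6-mtMSM, the tissue forms of complex IV and up to 3 called genes per list; Sdha, Uqcrh and members below the filter were added after their values were seen. The fit was tested on simulated data, and alternatives are given in the closing section.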

Additional observations from a re-analysis of the deposited data

Results flagged for a closer look

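Strains with MSM chromosome 5 or 7, whole or in part, differed from MSM or from each other at 4 member genes, each by a limma test of the difference between the strains themselves. The share of all probe sets called in these comparisons was not computed, so the count of 4 genes is no result about the members. MSM minus B6 called 23.4% of all tested probe sets. Cox6a1 at 1417418_s_at was lower in Chr5 than in MSM (-5.24 SD units, adjusted p = 0.000188). Ndufc2 at 1416366_at was lower in Chr7C than in MSM (-3.33, adjusted p = 0.0134), a difference lost without Chr7C male 2 or MSM male 2 and with the first array of each male alone (adjusted p = 0.0788).

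Ndufab1 differed from MSM at 2 of its probe sets in opposite ways. At 1428160_at Chr7 and Chr7C were higher than MSM (3.07 and 2.76, adjusted p = 0.0208 and 0.0397), while at 1458678_at Chr7 and Chr7T were lower (-3.16 and -3.92, adjusted p = 0.0177 and 0.00401). None of these 4 differences was kept in every fit with a male left out, and the 2 at 1428160_at changed sign under quantile normalization.

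Cox7a1, below the filter on low values, was higher in Chr7 than in MSM (3.30, adjusted p = 0.0173) and lower in Chr7T than in MSM (-4.62, adjusted p = 0.00114). Chr7T was also lower than Chr7C (-7.17, adjusted p = 0.000113), and Chr7 was higher than Chr7T (7.92, adjusted p = 3.71e-05).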

How the results depend on the processing

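With 2 males per strain, 1 male decides many calls, and quantile normalization of the compressed deposited values was severe. Removing array medians left 94 of the 98 named results with the same sign and call, and the other 4 lost their call. Quantile normalization, which moved the median MSM difference of all probe sets from 0.526 to 23.2 SD units, gave 49 higher members in MSM (beside 15884 of all 19429 probe sets), 51 higher and 11 lower against the other strains, 59 with a strain effect, 4 own-chromosome pairs and 8 against the other strains, and in the pathway lists 235 higher, 7 lower and 0 in B6-mtMSM. It turned the sign in MSM minus B6 (log2) of Ndufc1 1448284_a_at (0.0004841), Ndufc2 1460506_s_at (0.0001418), Ndufs5 (0.002728), Atp5d 1423716_s_at (-0.001412), Ndufa13 (-0.001371), Acad9 (0.0007502), Sco1 (0.0005494), Tfam (0.0008576), Coq2 (0.0008794) and Mrps21 (0.001436). It also turned Ndufs8 1434579_x_at in B6-mtMSM (-0.0002535), Ndufs5 in Chr4 (0.0008779), Uqcrc1 (1.138e-06) and Cox8c (0.0001049) in Chr9 against the other strains, and Ndufab1 1428160_at in Chr7 and Chr7C minus MSM (-0.001937 and -0.001875); 16 of 98 named differences became 0. With array medians removed, 18 members were lower in MSM and 16 higher against the other strains. One probe set per gene gave 4 lower in MSM, 20 higher and 13 lower against the other strains, 7 pairs over the 27 strains, 6 own-chromosome pairs, 10 against the other strains and 9 strain effects, with fewer probe sets tested. The first array alone gave 8 higher in MSM, 13 higher and 11 lower against the other strains, 5 pairs over the 27 strains, 5 own-chromosome pairs and 8 strain effects. With all 120 arrays, array number as the replicate block and male as a random block (correlation 0.334), 1 member was called in B6-mtMSM against B6 and 1 against the other strains, with 23 pairs over the 27 strains and 30 strain effects. Benjamini-Yekutieli adjustment gave 8 higher and 5 lower in MSM, 14 and 14 against the other strains, 9 pairs over the 27 strains, 12 own-chromosome pairs against the other strains and 8 strain effects. Leaving out 1 male gave 8 to 16 higher and 5 to 10 lower in MSM, 13 to 14 and 8 to 16 against the other strains, 8 to 32 pairs over the 27 strains (32 without Chr9 male 2), 7 to 15 and 17 to 22 own-chromosome pairs, 10 to 16 strain effects, 28 to 29 higher and 18 to 21 lower list probe sets and 0 to 1 in B6-mtMSM. Leaving out Chr9 male 1 for the B6 comparisons was chosen after seeing the data.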
